A study of Mus musculus with 14 samples.

Results

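The genes described here are Sln, Myl4, Myl7, Mybphl, Dkk3 and Dbh in left ventricular RNA, 6 of the 18193 genes that the array annotation names. They were selected on their own array values, with the fall of their means in wild-type ventricles after pressure overload in view, to look at atrial muscle transcripts in ventricle samples. Every probe set annotated to exactly 1 of these symbols was taken, which gave 11. Of these, 10 passed a filter on low values, which asked for more than 5.75 on the log2 scale, the overall median, on at least 3 arrays, and they cover all 6 genes.

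The left ventricles came from male C57BL/6 mice whose age the labels do not give. There were 4 arrays of Hsp22 knockout after 3 days of pressure overload by aortic constriction (TAC KO), 4 of Hsp22 wild type after the same surgery (TAC WT), 3 of knockout with no overload (basal KO) and 3 of wild type with no overload (basal WT). Hsp22, also called H11 kinase and encoded by Hspb8, is a small heat shock protein of muscle; the labels do not say how it was deleted or in which cells. No group is labelled sham-operated, and the labels do not state that every array is a mouse of its own, so p-values measure only the spread between these samples. Going by the names of the array files, basal and TAC arrays were run at times far apart, with basal KO 3 on a day of its own, so that surgery and run cannot be told apart in any comparison of TAC with basal arrays.

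Atrial and ventricular muscle cells share most of their contractile proteins but use different light chains on the myosin motor. Myl7 encodes the regulatory and Myl4 the essential light chain of atrial myosin, whose ventricular counterparts are encoded by Myl2 and Myl3. Sln encodes sarcolipin, a small membrane peptide that inhibits the SERCA calcium pump and is the atrial relative of phospholamban (Pln). Mybphl encodes a myosin-binding protein H-like protein of atrial muscle and the conduction system. Dkk3 encodes a secreted glycoprotein of the Dickkopf family, and Dbh encodes dopamine beta-hydroxylase, the enzyme of sympathetic neurons and chromaffin cells that turns dopamine into noradrenaline.

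In RefSeq's annotation of GRCm38.p6, Sln lies on chromosome 9 (53850251 to 53853849), Myl4 on chromosome 11 (104546017 to 104587215), Myl7 also on chromosome 11 (5896637 to 5898782), Mybphl on chromosome 3 (108364911 to 108380057), Dkk3 on chromosome 7 (112116019 to 112159482) and Dbh on chromosome 2 (27165507 to 27183204). Start-site windows of 300 bases were found in the RefSeq table for 4 of the 6. Those of Myl7 and Mybphl, which varied together from array to array, and that of Dbh, which did not vary with them, are shown 5′ to 3′ on the gene's own strand, at chr11:5898733-5899032 (minus), chr3:108364661-108364960 (plus) and chr2:27165257-27165556 (plus). Capitals mark matches to GATAA, the core bound by GATA factors, to AAGTG, the core bound by NKX2-5 (read as CACTT on the other strand), and to the CArG box bound by serum response factor.
Myl7: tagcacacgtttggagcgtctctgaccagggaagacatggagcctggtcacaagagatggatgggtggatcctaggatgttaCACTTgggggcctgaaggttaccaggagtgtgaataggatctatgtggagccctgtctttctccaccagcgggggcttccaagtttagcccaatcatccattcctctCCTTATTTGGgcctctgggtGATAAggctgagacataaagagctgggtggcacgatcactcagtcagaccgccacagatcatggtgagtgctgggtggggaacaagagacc
Mybphl: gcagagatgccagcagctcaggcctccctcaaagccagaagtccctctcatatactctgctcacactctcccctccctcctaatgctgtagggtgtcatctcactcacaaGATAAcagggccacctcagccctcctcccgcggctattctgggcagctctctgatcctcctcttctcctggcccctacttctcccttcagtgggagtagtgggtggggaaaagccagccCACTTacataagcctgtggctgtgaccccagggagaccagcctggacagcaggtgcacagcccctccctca
Dbh: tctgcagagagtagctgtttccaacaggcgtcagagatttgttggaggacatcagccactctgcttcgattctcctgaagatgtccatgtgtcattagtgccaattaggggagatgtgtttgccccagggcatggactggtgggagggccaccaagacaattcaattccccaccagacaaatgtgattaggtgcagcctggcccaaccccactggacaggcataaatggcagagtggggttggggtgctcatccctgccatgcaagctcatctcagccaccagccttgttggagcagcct
The Myl7 window held 1 GATAA, 1 AAGTG on the other strand and 1 CArG box, and the Mybphl window held 1 GATAA and 1 AAGTG on the other strand. The Dbh window held no match to these. The Myl4 window, not printed here, held AAGTG at 2 places and neither GATAA nor a CArG box, although Myl4 also varied together with Myl7. That window (chr11:104550413-104550712, plus) lies inside the Myl4 span given above and not at its first base. Which start site gives the Myl4 transcripts measured here was not tested. Over all 32851 windows of this length, searched on both strands, GATAA was present in 25.4%, AAGTG in 46.4% and a CArG box in 1.63%. A MEF2 site, AGGTGT (a T-box core) and TATAAA were searched too and matched none of the 4 windows, against 3.19%, 13.7% and 13.6% of all windows.

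The arrays as a whole were alike within groups. Across the 12260 genes left after the filter, with 1 probe set each and not independent replicates, r was 0.970 to 0.991 in TAC KO and 0.918 to 0.986 in TAC WT. It was 0.986 to 0.988 in basal KO and 0.983 to 0.987 in basal WT. On 2 of 3 Hspb8 probe sets, log2 values were 4.27 to 5.92 on KO arrays against 10.26 to 12.29 on WT arrays. The remaining set, of a class that can bind other transcripts, read 8.2 to 8.84 in KO and 8.79 to 10.01 in WT. Myl2, the ventricular regulatory light chain, was at 14.40 to 14.80 on all 14 arrays. Values of different probe sets are not compared as levels below, since each probe set has its own brightness. In a bulk sample, fewer cells of a type and less RNA per cell cannot be told apart.

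Myl7, the atrial regulatory light chain, had the widest spread between arrays of the same group among 12260 genes. Its log2 values were 10.81, 5.21, 9.05 and 11.50 in TAC KO, 10.96, 12.31, 11.28 and 5.24 in TAC WT, 11.91, 9.11 and 13.56 in basal KO, and 12.75, 12.94 and 13.25 in basal WT. TAC KO 2 and TAC WT 4 lay below the filter value of 5.75, whereas the other TAC arrays were well above it. The highest and lowest arrays differed 78.2-fold within TAC KO, 134-fold within TAC WT, 21.9-fold within basal KO and 1.41-fold within basal WT. Those within TAC groups are lower bounds, because the lowest value lay under the filter.

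Myl4, the atrial essential light chain, followed the same arrays. On its brighter probe set (1422580_at) it read 9.97, 6.47, 9.01 and 11.17 in TAC KO, 10.16, 11.58, 10.35 and 6.03 in TAC WT, 11.46, 9.11 and 13.21 in basal KO, and 12.39, 12.36 and 12.61 in basal WT. The low arrays were again TAC KO 2 and TAC WT 4, and basal KO 3 was above all 3 basal WT arrays.

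Sln, the inhibitor of the calcium pump, read 9.0, 4.37, 6.89 and 8.72 in TAC KO, 8.37, 10.52, 8.71 and 4.27 in TAC WT, 10.44, 7.13 and 12.60 in basal KO, and 11.50, 11.86 and 11.95 in basal WT (1420884_at). Basal KO 2 lay below 5 of the 8 TAC arrays. The other Sln probe set (1420883_at) stayed between 4.89 and 5.51 on all 14 arrays, never above the filter value, and was not tested.

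Mybphl read 6.34, 5.30, 5.60 and 6.42 in TAC KO, 6.33, 7.27, 6.18 and 5.90 in TAC WT, 7.57, 6.08 and 9.90 in basal KO, and 8.55, 9.01 and 9.37 in basal WT. Dkk3 read 7.92, 7.10, 7.34 and 8.77 in TAC KO, 7.01, 7.89, 6.65 and 5.79 in TAC WT, 8.62, 7.37 and 9.71 in basal KO, and 8.99, 9.43 and 9.05 in basal WT (1417312_at). For both genes basal KO 3 was the highest array of all and basal KO 2 the lowest of the basal arrays. The other Dkk3 probe set (1448669_at) tracked it, with r of 0.967 over the 6 basal and 0.982 over the 8 TAC arrays.

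Dbh had a different pattern. It read 7.76, 7.62, 7.55 and 7.53 in TAC KO, 7.74, 7.56, 7.16 and 7.51 in TAC WT, 8.20, 8.19 and 8.16 in basal KO, and 8.55, 8.56 and 8.84 in basal WT (1450670_at). The 3 basal KO arrays, which spanned 44.3-fold for Sln, spanned 1.03-fold for Dbh, and every TAC array was below every basal array of either genotype. Within 1 genotype such a separation was common, with 26.7% of all genes in knockout and 24.3% in wild type. The share over both genotypes at once was not counted. Each separation of TAC from basal arrays named below is to be read beside those shares.

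**Figure D1:**
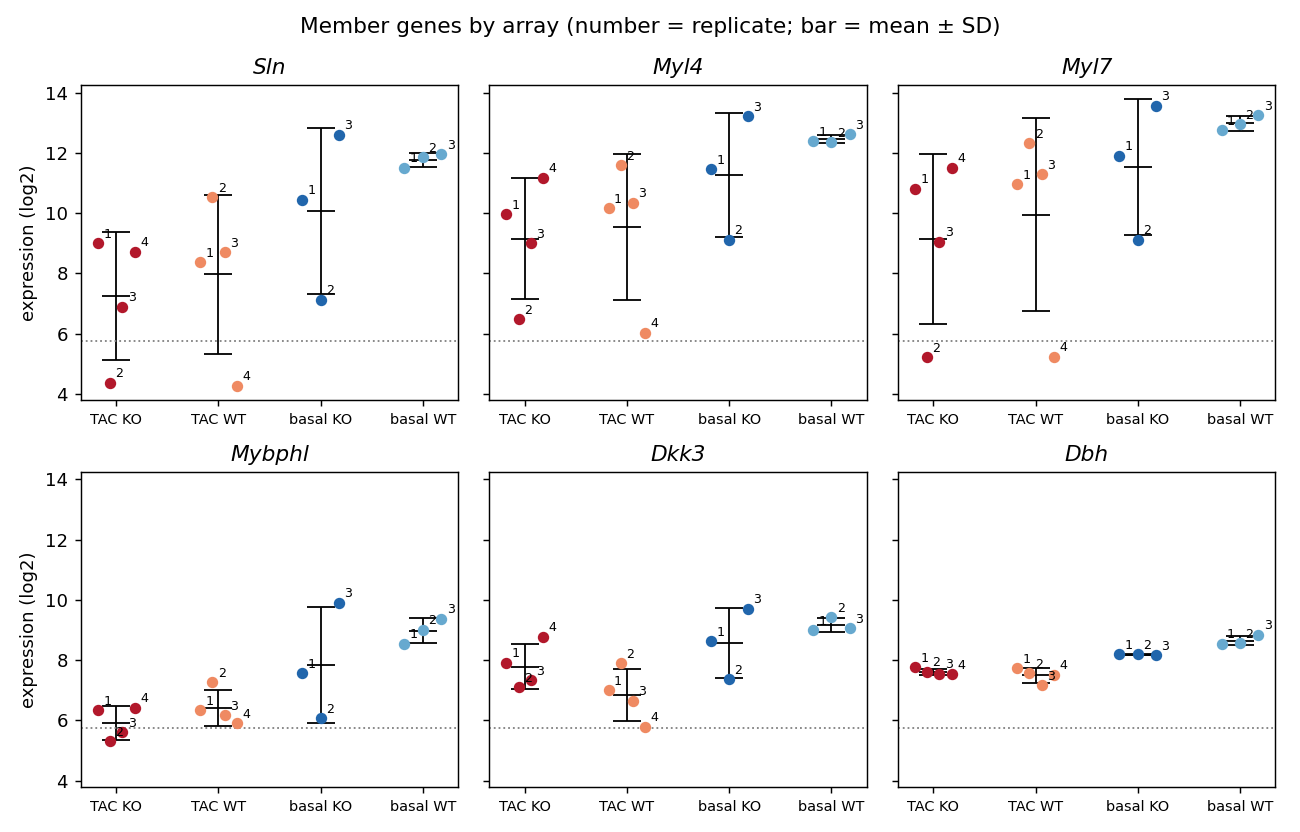
Each panel plots the log2 expression value of 1 gene (vertical axis) on every array of the 4 groups, with the replicate number beside each point, the bar giving the mean ± SD and the dotted line the filter value of 5.75. Sln, Myl4 and Myl7 spread over several log2 units within TAC KO, TAC WT and basal KO, and Dbh over 0.58 or less in each group.

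Between arrays of the same group, the residual SD was 2.54 on the log2 scale for Myl7, 2.23 for Sln and 1.95 for Myl4, which ranked 1, 2 and 3 of the 12260 genes. Mybphl (0.986) ranked 44, Dkk3 (0.823) ranked 115 and Dbh (0.163) ranked 8117, against a median of 0.196 over all genes. These ranks are descriptive, since the genes were chosen with these values in view.

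Across the 6 basal arrays, Myl7 and Sln had r of 0.999 and Myl7 and Myl4 0.996, and across the 8 TAC arrays r was 0.983 and 0.991. Mybphl followed Myl7 with r of 0.966 in basal and 0.783 in TAC arrays, and Dkk3 with 0.969 and 0.622. Dbh had r of 0.459 and -0.08. These relations, looked at after seeing the data, are given with no test, because the genes share their arrays and were chosen together. Without the 2 basal arrays farthest from the median of Myl7 (basal KO 1 and 2), r over the 4 left was 0.957 for Sln, 0.926 for Myl4, 0.993 for Mybphl, 0.663 for Dkk3 and -0.45 for Dbh. Without TAC KO 2 and TAC WT 4, r over 6 TAC arrays was 0.931 for Sln, 0.954 for Myl4, 0.912 for Mybphl, 0.284 for Dkk3 and -0.13 for Dbh. These values pool both genotypes, and Dkk3 was lower in TAC WT than in TAC KO at like Myl7. With the 4 group means in the model, Dkk3 changed by 0.276 (SE 0.049) per log2 unit of Myl7 over the 14 arrays.

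**Figure D2:**
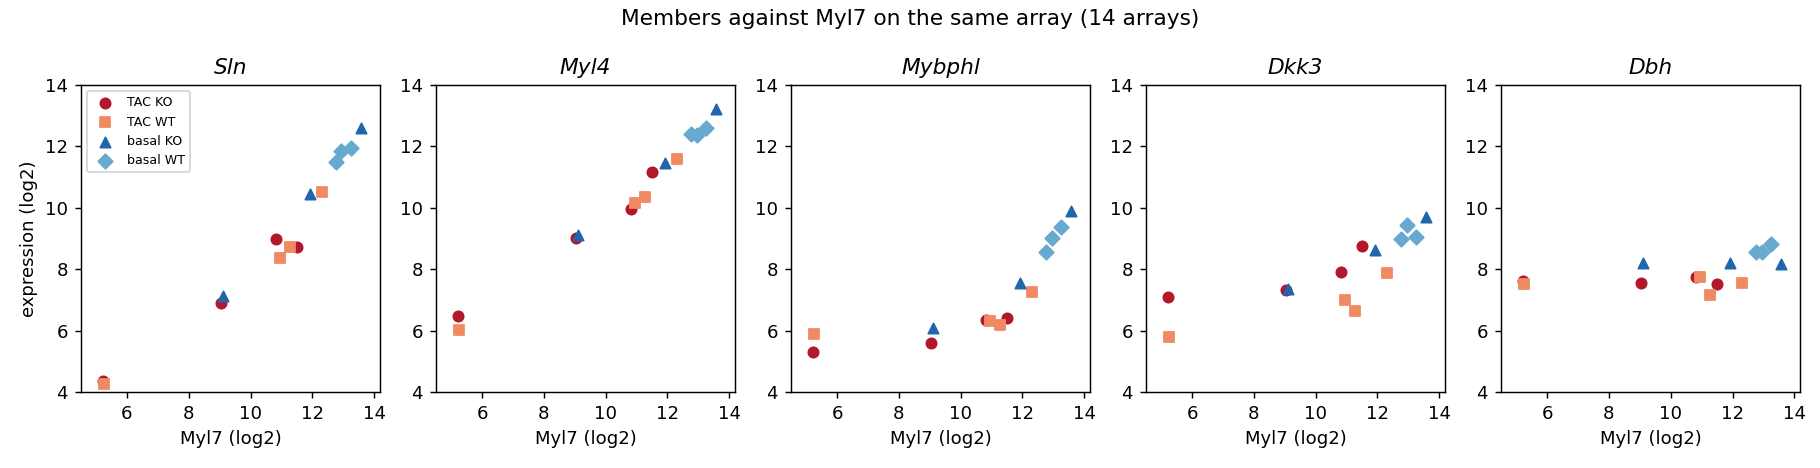
Each panel plots the log2 value of 1 gene (vertical axis) against that of Myl7 on the same array (horizontal axis), with groups by colour and symbol. Sln and Myl4 are high where Myl7 is high in both sets of arrays, Dkk3 of TAC WT lies below that of TAC KO at like Myl7, and Dbh of TAC arrays lies below 8 at low and high Myl7.

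Knockout ventricles after TAC were compared with basal knockout ventricles. The genes were chosen with values of all 14 arrays known, so the p-values of members here and below describe these arrays and are no independent support for the choice. All 6 genes had lower means, and 2 of them, Dbh and Mybphl, passed an adjusted p of 0.05 in limma, a linear model fitted to all genes with Benjamini-Hochberg adjustment. Over all genes 21.8% passed as lower, and nothing is read from the count of members. Dbh averaged 7.62 ± 0.10 (SD, n = 4) in TAC KO and 8.18 ± 0.02 (n = 3) in basal KO, a log2 difference of -0.57 (SE 0.13, limma adjusted p = 0.0041) or 1.48-fold lower. Mybphl averaged 5.92 ± 0.55 in TAC KO and 7.85 ± 1.93 in basal KO (log2 -1.94, SE 0.65, limma adjusted p = 0.0289), but the groups overlapped. Its call was lost without basal KO 1 (adjusted p = 0.0546), basal KO 3 (log2 -0.91, adjusted p = 0.141), TAC KO 2 (adjusted p = 0.0698) or TAC KO 3 (adjusted p = 0.0627). Leaving out single arrays, the adjusted p ran from 0.00435 to 0.141 for Mybphl and from 0.000831 to 0.0167 for Dbh.

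The other members did not pass in knockout ventricles. Sln differed by log2 -2.81 (SE 1.47, adjusted p = 0.133), Myl7 by -2.38 (SE 1.68, adjusted p = 0.256), Myl4 by -2.11 (SE 1.29, adjusted p = 0.194) and Dkk3 by -0.78 (SE 0.55, adjusted p = 0.253), all from limma. The 95% interval of the Myl7 difference ran from -5.99 to 1.23, so that neither a large fall nor no change lay outside it. Without basal KO 2, Sln was at log2 -4.28 (adjusted p = 0.0450; 0.0450 to 0.453 over all single arrays left out). Only Dbh had groups that did not overlap, 1 of 6 members against 26.7% of all genes with every TAC KO array below every basal KO array.

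In wild type, the contrast in view when the genes were chosen, the values are given as a description with no test. Mean log2 values were 7.97 in TAC WT and 11.77 in basal WT for Sln (log2 difference -3.80), 9.95 and 12.98 for Myl7 (-3.03), 9.53 and 12.45 for Myl4 (-2.92), 6.42 and 8.98 for Mybphl (-2.56), 6.84 and 9.16 for Dkk3 (-2.32), and 7.49 and 8.65 for Dbh (-1.16). For all 6 genes every TAC WT array was below every basal WT array, as were 24.3% of all genes. Without TAC WT 4 alone, Myl7 differed by log2 -1.46, Myl4 by -1.76 and Sln by -2.57. The median over the 6 genes was -2.74 in wild type and -2.02 in knockout, against 0.02 and -0.02 over all genes.

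Between knockout and wild-type ventricles after TAC, none of the 6 genes passed, against 0.00816% of all genes. Dkk3 averaged 7.78 ± 0.74 in TAC KO and 6.84 ± 0.87 in TAC WT (log2 0.95, 95% interval -0.14 to 2.04, limma adjusted p = 0.694), but with array weights it was at -0.051. The interval for Myl7 was -4.15 to 2.54 around log2 -0.81, and Sln (-0.72), Myl4 (-0.38), Mybphl (-0.51) and Dbh (0.12) had adjusted p-values up to 0.954. Without TAC KO 2 the sign turned for Sln (0.24), Myl4 (0.52) and Myl7 (0.51). Between basal knockout and basal wild-type ventricles none passed either (0% of all genes, and 707 at an unadjusted p under 0.05). Dbh was at 8.18 ± 0.02 in basal KO and 8.65 ± 0.16 in basal WT (log2 -0.47, SE 0.14, limma adjusted p = 0.674), with groups that did not overlap, as for 6.13% of all genes. Sln (-1.71), Myl7 (-1.45), Myl4 (-1.19), Mybphl (-1.13) and Dkk3 (-0.59) had basal KO arrays both above and below basal WT. The difference between the TAC effects in knockout and in wild type passed for none (adjusted p 0.499 to 0.976; 0% of all genes, 952 at an unadjusted p under 0.05). These 3 comparisons also share wild-type arrays with the contrast of TAC WT and basal WT.

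**Figure D3:**
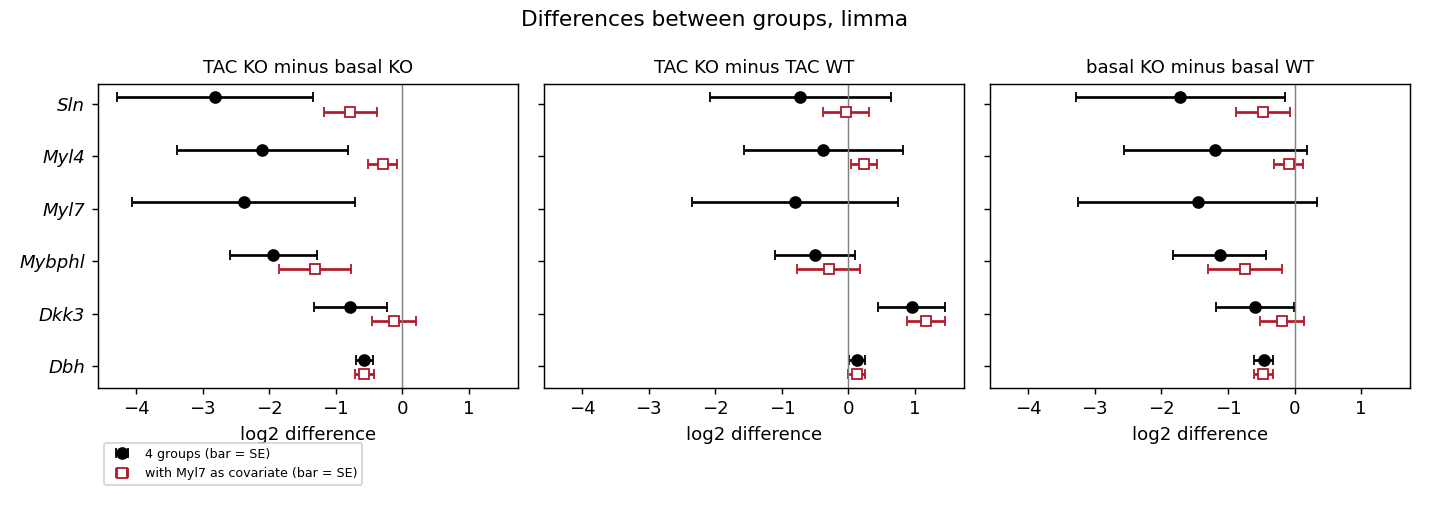
Each panel plots, for 1 comparison, the log2 difference (horizontal axis) of each gene with bars of ± SE, in the model with 4 groups (filled circles) and with the Myl7 value of the array as a covariate (open squares, not drawn for Myl7 itself). For TAC KO minus basal KO, Sln is at -2.81 without and -0.78 with the covariate, and Dbh at -0.57 in both.

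With the Myl7 value of each array as a covariate, an alternative chosen after seeing the data, Dbh kept its log2 difference of -0.57 in knockout (SE 0.14, limma adjusted p = 0.0109). Sln was then at -0.78 (SE 0.40, adjusted p = 0.141), Myl4 at -0.30 (SE 0.22, adjusted p = 0.294), Mybphl at -1.31 (SE 0.54, adjusted p = 0.0736) and Dkk3 at -0.13 (SE 0.33, adjusted p = 0.776). So 1 of 5 members passed as lower, against 17.4% of all genes in that fit. Per log2 unit of Myl7, Sln changed by 0.852, Myl4 by 0.759, Dkk3 by the slope given above, Mybphl by 0.262 and Dbh by -0.001. Each slope was shared by all groups. Mybphl ran from 6.08 to 9.90 in basal KO but from 5.30 to 6.42 in TAC KO and from 5.90 to 7.27 in TAC WT. TAC KO 2 and TAC KO 3 lay under the filter value. A shared slope may therefore not hold for Mybphl, and its differences with the covariate do not show a fall beyond that of Myl7. Myl7 itself and Sln lay under the filter value on TAC KO 2 and TAC WT 4. The slopes and differences of Sln, Myl4 and Dkk3 with the covariate thus also rest in part on values at that limit. In wild type, with no test, the differences with the covariate were -1.22 for Sln, -0.62 for Myl4, -1.76 for Mybphl, -1.48 for Dkk3 and -1.16 for Dbh. Dkk3 in TAC KO minus TAC WT was at 1.17 (SE 0.28, adjusted p = 0.328). The covariate is itself 1 of the genes under comparison, so these values describe what differs at equal Myl7 and not a corrected effect of surgery.

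Array pairs with nearly the same Myl7 value show the same data directly. Within a tolerance of 0.5, set after seeing the data, 4 pairs of a TAC and a basal array were found. TAC KO 3 minus basal KO 2 gave log2 differences of -0.24 for Sln, -0.10 for Myl4, -0.48 for Mybphl, -0.03 for Dkk3 and -0.64 for Dbh. TAC WT 2 minus basal KO 1 gave 0.08 for Sln, 0.12 for Myl4, -0.30 for Mybphl, -0.73 for Dkk3 and -0.64 for Dbh. TAC KO 4 minus basal KO 1 gave -1.72 for Sln, -0.29 for Myl4, -1.15 for Mybphl, 0.15 for Dkk3 and -0.67 for Dbh. Dbh and Mybphl were lower on the TAC array in these 3 pairs and in TAC WT 2 minus basal WT 1, which gave -0.98 for Sln, -0.81 for Myl4, -1.28 for Mybphl, -1.10 for Dkk3 and -0.99 for Dbh. For Dbh this sign was given in advance, since every TAC array was below every basal array at any Myl7. Mybphl on TAC KO 3 was under the filter value. The pair of TAC WT 2 and basal KO 1 also differs in genotype. Myl7 itself differed by -0.06, 0.40, -0.41 and -0.44 in the 4 pairs as listed. Over the 4 pairs Sln, Myl4 and Dkk3 were lower in some and level or higher in others. The pairs share TAC WT 2 and basal KO 1, and no test is given.

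The probe sets of 1 gene did not always vary together. The dimmer Myl4 probe set (1457126_at) read 6.11, 6.06, 5.97 and 5.98 in TAC KO, 6.24, 6.19, 5.97 and 6.10 in TAC WT, 6.72, 6.76 and 6.57 in basal KO, and 6.67, 6.69 and 6.66 in basal WT. It thus separated TAC from basal arrays with little spread, as Dbh did, and its r with the brighter set was -0.85 in basal and 0.088 in TAC arrays. In a fit of all kept probe sets it was lower in TAC KO than in basal KO by log2 -0.65 (SE 0.10, limma adjusted p = 0.000368; 20.2% of probe sets passed as lower), where the brighter set did not pass (-2.11, adjusted p = 0.191). Neither the labels nor the annotation used here give which Myl4 transcripts the dimmer set reads. For Dbh, the set 1447592_at averaged 5.68 ± 0.07 in TAC KO and 6.13 ± 0.07 in basal KO. The difference was log2 -0.45 (limma adjusted p = 0.0138). This set read 5.36 to 5.75 on TAC arrays, none above the filter value, and passed the filter through basal arrays alone. Its call therefore rests on values near that limit, and little is to be read from it. The set 1459848_x_at, of a class that can bind other transcripts, was not lower in TAC KO (log2 0.19, limma adjusted p = 0.281).

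**Figure D4:**
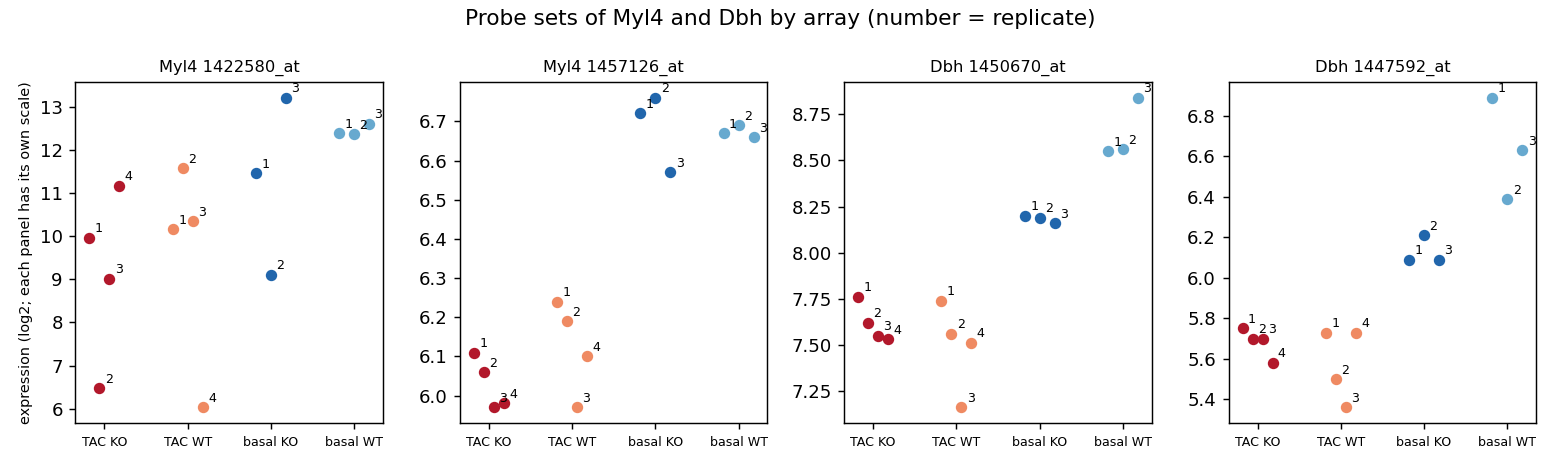
Log2 values (vertical axes, each with its own scale) of 2 Myl4 and 2 Dbh probe sets by array in the 4 groups, with replicate numbers. Myl4 1457126_at runs from 5.97 to 6.24 on TAC arrays and from 6.57 to 6.76 on basal arrays, while 1422580_at overlaps between TAC and basal arrays.

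Other genes of atrial muscle were set beside the members. Of 12 listed atrial genes, 9 were tested, and in wild type after TAC 5 fell and none rose, whereas in knockout 3 fell and none rose. The median over the 9 was log2 -0.51 in wild type and -0.28 in knockout, against 0.02 and -0.02 over all genes. Over all genes 21.8% passed as lower and 22.7% as higher in knockout, and 23.8% as lower and 26.9% as higher in wild type, and each count of listed genes below is to be read beside those shares. Kcnj3, a subunit of the acetylcholine-gated potassium channel, fell in both (log2 -1.51 in knockout, limma adjusted p = 0.00624, and -1.53 in wild type, adjusted p = 0.00469). Kcna5, the channel of the ultrarapid potassium current, fell in knockout (-0.90, adjusted p = 0.00449) and differed by -0.30 in wild type (adjusted p = 0.233). Pam, a peptide-amidating enzyme of atrial granules, fell in wild type (-1.53, adjusted p = 0.000788) and differed by -0.11 in knockout (adjusted p = 0.757), and the transcription factor Hey1 fell in both (-0.67 in knockout, adjusted p = 0.0280, and -0.59 in wild type, adjusted p = 0.0418). Bmp10, a growth factor of atrial muscle, fell in wild type (-1.37, adjusted p = 0.0128) and differed by -0.52 in knockout (adjusted p = 0.299). Tbx5 fell in wild type by 0.51 on the log2 scale (adjusted p = 0.0171) and differed by -0.275 in knockout (adjusted p = 0.172). The remaining tested genes of this list passed in neither genotype. Nppa was higher by 0.78 in knockout (limma adjusted p = 0.0699) and by 0.44 in wild type (adjusted p = 0.275). Kcnj5 differed by 0.305 in knockout and 0.067 in wild type, and Nr2f2 by -0.0175 and -0.041. Bmp10 no longer passed with basal WT 2 left out (adjusted p = 0.0529), nor did Tbx5 with basal WT 3 left out (adjusted p = 0.0678). Hey1 no longer passed in knockout with basal KO 2 or 3 or TAC KO 1, 2 or 3 left out. In wild type it no longer passed with TAC WT 3 or 4, TAC KO 3, basal KO 2 or basal WT 1 or 2 left out. Gja5 and Nr2f1, markers of atrial muscle too, were at 4.56 or less on all arrays.

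Nppa, the natriuretic peptide of atrial granules, which a loaded ventricle also makes, read 13.71, 14.26, 14.23 and 14.45 in TAC KO, 13.35, 13.84, 14.41 and 14.65 in TAC WT, 13.47, 12.65 and 14.04 in basal KO, and 13.40, 13.80 and 13.67 in basal WT. It followed Myl7 among basal arrays (r = 0.948) and not among TAC arrays (r = -0.48, or -0.10 without TAC KO 2 and TAC WT 4), where its highest value was on TAC WT 4, an array with Myl7 below the filter value. Kcnj3 and Bmp10 had r with Myl7 of 0.929 and 0.83 in basal arrays and of 0.228 and 0.062 in TAC arrays, and Pam of 0.236 and -0.14. Without basal KO 1 and 2, r was 0.836 for Nppa, 0.687 for Bmp10 and 0.034 for Kcnj3, so that the relation of Kcnj3 rested on those arrays.

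Ventricular and shared muscle genes were set beside them too. Between TAC and basal arrays the log2 differences of Myl2, Myl3, Pln and Myh6 ran from -0.26 (Myl3, knockout, limma adjusted p = 0.0647) to -0.001 (Pln, knockout, adjusted p = 0.995), and none passed in either genotype. These genes read 14.02 or more on every array. Whether such bright probe sets can still show a change in level was not tested. Of 11 tested ventricular genes, 1 rose in each genotype, the slow heavy chain Myh7 (log2 2.44 in knockout and 1.98 in wild type), 2 fell in knockout and 3 in wild type. Myh7 read 10.24 on TAC WT 3, inside the basal range, and was at log2 2.72 in wild type without that array; without basal WT 1 its call was lost (adjusted p = 0.0535). Kcnip2, a subunit of the transient outward potassium channel, fell in both (-2.60 in knockout, adjusted p = 0.0114, and -2.02 in wild type, adjusted p = 0.0308), with the wild-type call lost without any 1 of the 3 basal WT arrays, TAC WT 3 or TAC WT 4, and a knockout value of -1.93 without TAC KO 4. The mean log2 level of the 11 genes lay at 10.08 to 10.26 in TAC KO, 9.41 to 10.51 in TAC WT, 10.16 to 10.33 in basal KO and 10.16 to 10.41 in basal WT per array, and that of the 9 atrial genes at 8.65 to 8.73, 8.33 to 8.84, 8.71 to 9.36 and 9.15 to 9.27 in the same groups. Among 12 general muscle genes 1 fell in knockout (Mybpc3, -0.39, adjusted p = 0.0380) and 1 rose in wild type (Actc1, 0.22, adjusted p = 0.0349). Mybpc3 lost its call without any 1 basal KO array, TAC KO 3 or TAC KO 4, and Actc1 without any 1 basal WT array or TAC WT 2, 3 or 4. The mean log2 level of these 12 genes per array lay at 13.81 to 13.93 in TAC KO, 13.65 to 14.02 in TAC WT, 13.86 to 13.92 in basal KO and 13.85 to 13.90 in basal WT.

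The families around the members were counted as well. Of 5 tested genes of the SERCA pump and its small regulators, 2 fell in knockout and 3 in wild type. The micropeptide gene Mrln (-0.53 in knockout, adjusted p = 0.00928, and -0.46 in wild type, adjusted p = 0.0155) and the fast-muscle pump Atp2a1 (-0.58, adjusted p = 0.00946, and -0.67, adjusted p = 0.00343) fell in both, while the cardiac pump Atp2a2 was at -0.04 and -0.05. Mrln read 5.09 to 5.52 on TAC arrays, all under the filter value, and passed the filter through basal arrays alone. Its calls therefore rest on values near that limit, and little is to be read from them. Of 10 other genes of myosin light chains and their kinases 1 rose and 1 fell in each genotype: Myl12a of non-muscle myosin rose (0.44 in knockout, adjusted p = 0.00261, and 0.51 in wild type, adjusted p = 0.000815), and Mylk3, the cardiac light chain kinase, fell (-0.52, adjusted p = 0.0276, and -0.60, adjusted p = 0.0119). Mrln lost its wild-type call without basal WT 2 or 3, and Mylk3 its knockout call without any 1 basal KO array or TAC KO 4. Of 2 tested myosin-binding protein genes, Mybpc2 rose in wild type (1.30, adjusted p = 0.0106). None of the 4 other Dickkopf family genes listed passed the filter.

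For Dbh, genes of catecholamine handling and of sympathetic neurons were set beside it. Of 7 tested genes of catecholamine synthesis and handling other than Dbh, 1 rose and 2 fell in knockout, and 2 rose and 2 fell in wild type. Pnmt, which turns noradrenaline into adrenaline, fell by 0.97 on the log2 scale in knockout (limma adjusted p = 9.08e-05) and by 0.83 in wild type (adjusted p = 0.000123), with no overlap between TAC and basal arrays. Slc6a2, the noradrenaline transporter, fell in both (-0.74 in knockout, adjusted p = 0.00199, and -0.57 in wild type, adjusted p = 0.00686), as did the neuropeptide gene Npy (-0.53, adjusted p = 0.00483, and -0.44, adjusted p = 0.0105). Cyb561, an electron carrier of catecholamine vesicles, rose (1.14, adjusted p = 0.000487, and 1.12, adjusted p = 0.000354). Maoa, a monoamine oxidase, rose in wild type (0.58, adjusted p = 0.0127, lost without basal WT 3) and differed by 0.39 in knockout (adjusted p = 0.0722). Ddc, Slc18a1 and Maob did not pass in either genotype. Of 5 tested sympathetic neuron genes 2 fell in knockout and 3 in wild type. The defining marker Th was above the filter value on 1 array (5.19 to 5.80), and Chgb, Phox2a, Slc18a2 and Gap43 on none, so that the part of neurons in the Dbh values was not tested.

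Markers of tissue next to the ventricle were counted too. Of 6 tested nodal and conduction genes 2 rose and 1 fell in knockout, and 1 rose and 3 fell in wild type, with Shox2 and Isl1 below the filter on every array. Of 7 tested skeletal muscle genes 2 fell in knockout, and 1 rose and 3 fell in wild type. Of 6 epicardial genes 1 rose in knockout and 1 fell in wild type, and of 6 endocardial and valve genes 3 rose and 1 fell in each genotype. Of 2 tested adipocyte genes 1 fell in wild type, and of 2 lung genes 2 fell in wild type. Those calls (Retn, Sftpb and Ager) were each lost without TAC WT 3, without TAC WT 4 and without some other single arrays. The epicardial Krt8 lost its knockout call without any 1 basal KO array. Some calls of Cacna1d, Tnni2, Wt1, Nfatc1, Cdh11, Cytl1 and Scx were also lost with certain single arrays left out. None of the listed genes passed in a comparison of knockout with wild type. Whether the dissected pieces held atrial tissue is not recorded in the labels, and its part in the member values was not tested.

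**Figure D5:**
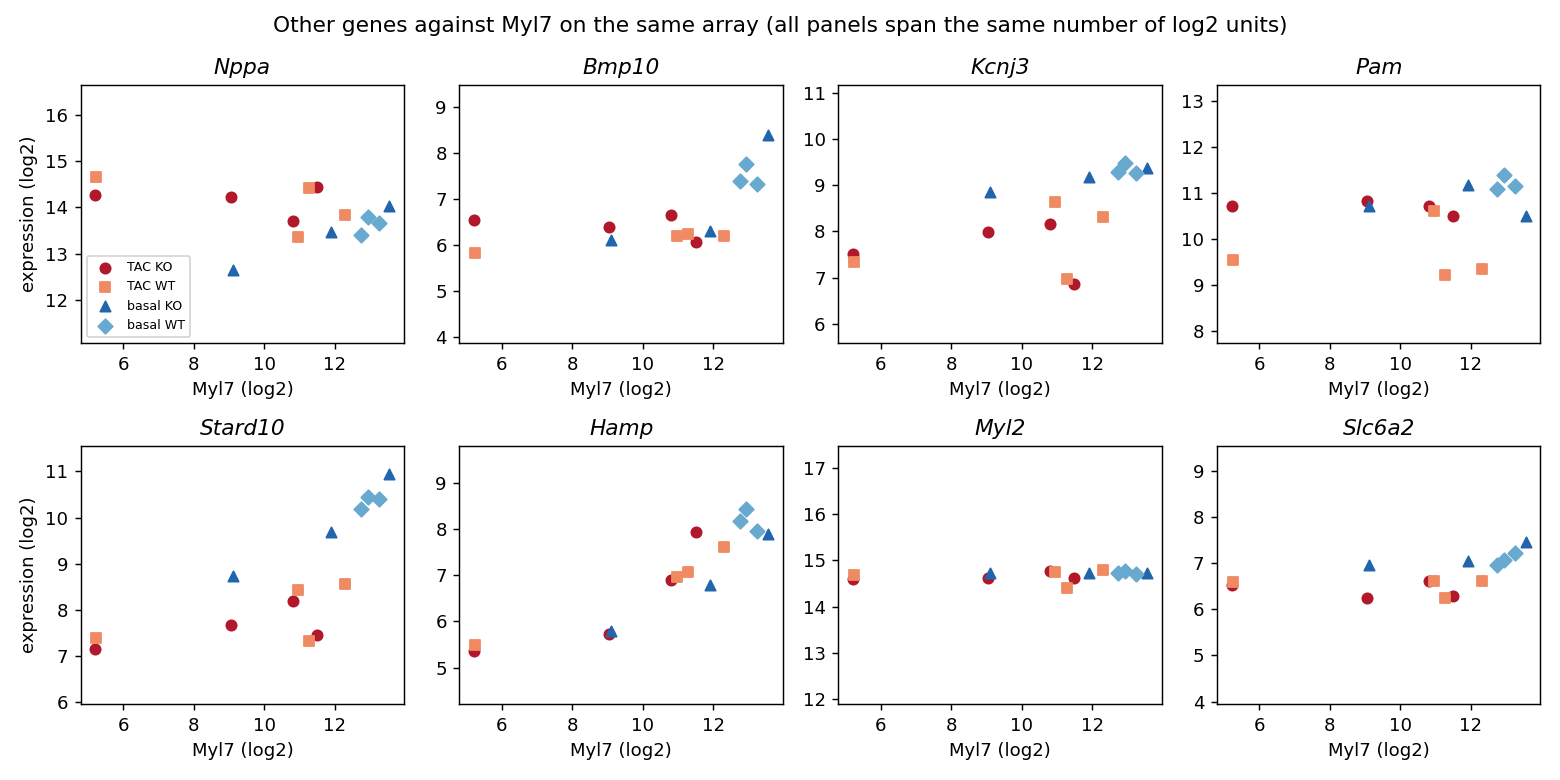
Each panel plots the log2 value of another gene (vertical axis, the same span in all panels) against Myl7 on the same array (horizontal axis) by group. Hamp is low on the 4 arrays with the lowest Myl7, Myl2 stays at 14.40 to 14.80, and Nppa is high on the TAC arrays with the lowest Myl7.

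By likeness to the mean z-score of the 6 genes, the non-member genes with the highest Pearson r over all 14 arrays were Ppp1r12c (0.920), Stard10 (0.915), 1600020E01Rik (0.908), Zfp335 (0.908), Gps2 (0.906) and Pdlim4 (0.906), a measure that the gap between TAC and basal arrays also enters. After subtraction of each group's mean from both, they were Hamp (0.932), Anp32e (0.852), Ppp1r12c (0.832), Car3 (0.826), Mtcl1 (0.819) and Phf2 (0.819). Hamp, the hepcidin gene known as a regulator of iron export, read 6.90, 5.36, 5.73 and 7.94 in TAC KO, 6.96, 7.61, 7.06 and 5.48 in TAC WT, 6.78, 5.79 and 7.89 in basal KO, and 8.18, 8.44 and 7.96 in basal WT. Its low arrays were the low arrays of Myl7, with r to Myl7 of 0.911 in basal and 0.912 in TAC arrays, or -0.76 and 0.920 without the 2 farthest arrays, so that the relation among basal arrays rested on basal KO 1 and 2. Stard10, a lipid transfer protein, read 8.20, 7.16, 7.67 and 7.45 in TAC KO, 8.43, 8.56, 7.33 and 7.38 in TAC WT, 9.68, 8.73 and 10.95 in basal KO, and 10.19, 10.45 and 10.40 in basal WT. All its TAC values were below all its basal values, and it fell in knockout by 2.17 (limma adjusted p = 0.0024) and in wild type by 2.42 on the log2 scale (adjusted p = 0.000979).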

How the data were processed

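Left ventricular RNA was measured on 14 Affymetrix Mouse430_2 arrays. The files hold 1 log2 value per probe set and array, with 2 decimals, made by the authors with RMA, per the submitters' processing notes. The RMA version is not given in the sources used, nor is whether basal and TAC arrays were normalized as 1 set. Groups come from the sample titles and replicate numbers from the same labels.

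Symbols came from the platform annotation, updated to RefSeq (GRCm38.p6): 34958 probe sets had 1, 932 several and 9211 none. Without 64 control probe sets, those above 5.75 on at least 3 arrays were kept (24525), and the kept probe set with the highest mean stood for each of 12260 genes. A group-means model on all 14 arrays (10 residual and 3.43 prior degrees of freedom) was fitted with limma 3.58.1 in R 4.3.3 with eBayes, and p-values were adjusted over all genes by Benjamini-Hochberg, with a threshold of 0.05. On simulated data for TAC KO minus basal KO with 12260 genes, 83% of changes of log2 1 and 95% of log2 2 were recovered, and 6 unchanged genes passed. The changed genes were drawn at random, each with its own spread. Those rates do not hold for Sln, Myl4 and Myl7, whose residual SDs were 2.23, 1.95 and 2.54 against a median of 0.196. The number of arrays limits the precision.

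The members, lists and alternatives were chosen with earlier results of these data known. Named are all members, up to 4 genes per list with the smallest p, fixed marker genes and 6 genes per likeness measure. Motifs, the Myl7 covariate, the pairs at like Myl7 and the relations with Myl7 were chosen after seeing the data. Same-numbered arrays of different groups deviated together in 2 of 19 pairs (r over 0.1, range -0.16 to 0.594). Both were pairs of TAC KO with TAC WT, with r of 0.594 for number 1 and 0.489 for number 4. Numbers 2 and 3 of the same groups gave -0.060 and -0.072. A link between some same-numbered TAC arrays is therefore possible. The main fit did not take the numbers as pairs, and the replicate block was tried as an alternative.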

Additional observations from a re-analysis of the deposited data

How the results depend on the processing

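Tried were a stricter filter (7.7) or none, averaging the probe sets of a gene, every probe set alone, quantile normalization, centring on the array median or on general muscle genes, a fit on the compared arrays, eBayes with trend and robust, array weights, the replicate block, leaving out each array, and the Myl7 covariate. Genes passing in TAC WT minus basal WT went to 4126 with the stricter filter, where fewer genes are tested, against 6214 as reported and 4831 to 8150 under the other settings on all arrays or on the compared ones. In TAC KO minus TAC WT 1 gene passed, Fbln5, and 5 passed with the mean of probe sets, 5 with every probe set, 3 after quantile normalization, 2880 with array weights and 0 with the replicate block, which changed no member's call. In basal KO minus basal WT 0 passed, against 1 with the mean of probe sets, 1 with every probe set and 5 with array weights; for the difference of TAC effects 0 passed, against 166 with array weights. Of the 6 members 2 passed in TAC KO minus basal KO, against 1 with the Myl7 covariate; with array weights Sln passed too (log2 -3.14, adjusted p = 0.0379).

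Leaving out 1 array at a time, genes passing ranged from 4808 to 6842 (TAC WT minus basal WT), 4091 to 6133 (TAC KO minus basal KO), 0 to 107 (TAC KO minus TAC WT; 107 without TAC WT 3 and 19 without TAC WT 4) and 0 to 8 (difference of TAC effects), and members passing from 1 to 3 in TAC KO minus basal KO.

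Signs turned for members in comparisons where no member passed. With array weights, Dkk3 in TAC KO minus TAC WT was at -0.051, and the difference of TAC effects was -0.88 for Sln, -0.70 for Myl4, -1.08 for Myl7 and -0.020 for Mybphl. With the Myl7 covariate, Myl4 in TAC KO minus TAC WT was at 0.24. Leaving out 1 array, TAC KO minus TAC WT ranged from -1.96 to 0.24 for Sln, -1.54 to 0.52 for Myl4 and -2.37 to 0.51 for Myl7; the difference of TAC effects from -0.47 to 2.26 for Sln, -0.35 to 1.79 for Myl4, -0.92 to 1.96 for Myl7 and -0.26 to 1.65 for Mybphl; and Dkk3 in basal KO minus basal WT from -1.16 to 0.0083. The cause was not tested. The median of all genes in TAC WT minus basal WT was 0.02 as deposited, -0.10 after quantile normalization and 0.098 after centring.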
